A study of Homo sapiens with 132 samples.

Results

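The genes described here are 31 genes known as transcriptional targets of the tumour suppressor p53, followed across 4 gastric cancer cell lines after EGF, cetuximab, trastuzumab and afatinib treatment. They were chosen by name, and all 31 were found by their Ensembl identifiers among the 65217 identifiers of the count tables. By their main role they fall into 7 groups: feedback on p53 (3 genes), growth arrest and signalling (5), cell death and survival (9), DNA repair and nucleotide supply (5), metabolism and redox (5), autophagy and mitochondria (2) and ubiquitin ligases (2).

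p53 is a transcription factor that is stabilised after DNA damage and other stress and then binds response elements in its target genes, each built from a pair of short half-sites. Its products halt the cell cycle, repair DNA, adjust metabolism or start apoptosis, and MDM2, which marks p53 for degradation, closes a negative feedback loop. Many of these genes also answer to other inputs, such as growth factor signalling through the MAP kinase pathway, so their RNA is not a direct reading of p53.

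RNA was sequenced from MKN1, MKN7, NCI-N87 and Hs746T cells, with 3 replicates for each of 44 conditions. MKN1 and Hs746T cells were left untreated or were given EGF (5 ng/ml), the anti-EGFR antibody cetuximab (1 μg/ml), EGF + cetuximab, the anti-HER2 antibody trastuzumab (5 μg/ml) or the EGFR and HER2 kinase inhibitor afatinib (0.5 μM) alone or together with trastuzumab, and were harvested after 4 h or 24 h. For MKN7 and NCI-N87 cells the conditions were untreated, trastuzumab, afatinib and trastuzumab + afatinib at the same time points. Each line is 1 established culture, the replicates are described as biological triplicates of that culture, and the controls are untreated cells. The study names DMSO as the solvent of afatinib, and these samples hold no library of cells given DMSO alone. An effect of afatinib, with or without trastuzumab, therefore cannot be told apart from that of its solvent. The libraries held 25832557 to 69434151 counts on genes, with a median of 50725775, and levels are given as CPM, counts scaled to the library total after TMM normalization. Each treatment was set against the untreated libraries of its own time point in edgeR, with Benjamini-Hochberg adjustment over all genes tested. A gene is called changed below when its adjusted p was below 0.05, and regulated when its log2FC was in addition above 1 or below -1, the selection criteria of the study. Effects are log2FC with the standard error (SE).

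The summed level of 6 epithelial markers (EPCAM, KRT8, KRT18, KRT19, CDH1 and CLDN4) was 12600 to 23800 CPM for MKN1, 4470 to 7290 for MKN7, 9940 to 25900 for NCI-N87 and 717 to 1040 for Hs746T libraries. Hs746T cells instead had the highest sum of 5 mesenchymal markers (3390 to 5960 CPM), overlapping with MKN1 (1740 to 3850) and above MKN7 and NCI-N87 cells (at most 967), and their untreated libraries had a median CDH1 level of 0.778 CPM. The 4 collagen and matrix genes taken as fibroblast markers summed to 482 to 889 CPM there and to at most 345 CPM in the other lines, and 2 endothelial markers to 80 to 275 CPM against at most 27.7. Leukocyte markers summed to at most 0.684 CPM and the erythroid markers to at most 2.26 CPM in any library, and CD68 was listed at 0.

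Of the 31 genes, 3 had no count in any library: TP53I3 (a quinone oxidoreductase), TP53INP1 (a cofactor of p53 in apoptosis and autophagy) and TRIAP1 (a small survival factor of mitochondria). In the annotation each of the 3 overlaps a protein-coding gene on the opposite strand, as do 5 of the other 28 genes (MDM2, XPC, PLK3, POLH and PIDD1). Among all 19674 protein-coding identifiers, 1970 (10%) had no count anywhere, and they include EIF4G1 and NDUFB8, which cells generally use. The 0 of these genes is therefore given as listed and not as a sign that they are silent, although 3 counts in a library of this depth would correspond to 0.0432 to 0.116 CPM, counting error only. Whether the counting used the strand is not given in the sources used here, so reads of an overlapping pair cannot be told apart. After the filter on low counts, tests covered 27 of the 31 genes for MKN1, 26 for MKN7, 26 for NCI-N87 and 28 for Hs746T. EDA2R was tested in Hs746T cells alone, and SPATA18 in MKN1 and Hs746T cells alone.

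The promoter sequences show where the best known link to p53, the half-site, lies close to the start of these genes. RefSeq promoter windows (GRCh38.p14, 250 bases before to 50 after a start) were at hand for 27 of the 31 genes, in 37 windows. A half-site of 10 letters, which reads the same way on both strands, was found in 5 of the 37 windows (13.5%) and in 2329 of 35116 windows of all genes (6.63%). The 5 stretches that hold it are printed 5′ to 3′ on the strand of the gene, with the half-sites in capitals. They are AEN (chr15:88621281-88621340, plus strand), DDB2 (chr11:47214954-47215003, plus), FDXR (chr17:74872971-74873030, minus), PLK2 (chr5:58460184-58460243, minus) and SESN1 (chr6:109009003-109009062, minus).
AEN: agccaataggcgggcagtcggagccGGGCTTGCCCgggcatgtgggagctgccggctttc
DDB2: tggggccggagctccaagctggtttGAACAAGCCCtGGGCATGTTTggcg
FDXR: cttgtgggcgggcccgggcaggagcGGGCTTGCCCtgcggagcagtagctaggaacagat
PLK2: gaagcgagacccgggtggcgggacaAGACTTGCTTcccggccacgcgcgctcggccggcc
SESN1: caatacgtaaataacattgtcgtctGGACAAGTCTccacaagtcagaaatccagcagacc

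DDB2 is the gene with a pair of half-sites, starting 6 and 17 bases after its start and separated by a single base. The half-site starts 34 bases before the start in AEN, 11 in FDXR and 49 in SESN1, and it lies farther upstream in PLK2. PLK3, which fell most in MKN7 cells, and RNF144B, which rose most there, held no half-site in their windows, and the 150 bases before their starts are shown for comparison (PLK3, chr1:44800227-44800376, plus strand; RNF144B, chr6:18387200-18387349, plus strand).
PLK3: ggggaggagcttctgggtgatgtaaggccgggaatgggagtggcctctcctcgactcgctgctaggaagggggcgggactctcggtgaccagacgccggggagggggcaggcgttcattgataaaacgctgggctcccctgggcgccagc
RNF144B: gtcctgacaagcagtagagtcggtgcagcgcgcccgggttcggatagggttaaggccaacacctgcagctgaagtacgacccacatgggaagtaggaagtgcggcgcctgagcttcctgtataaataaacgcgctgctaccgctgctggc

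Motifs of factors downstream of MAP kinases were searched on both strands of the same windows. The CArG box of serum response factor was in 0 of the 37 windows (1.29% of all windows) and the AP-1 motif TGANTCA in 5 (13.5%, against 7.71%), which belong to EDA2R, MDM2 and PERP. Windows of a gene can overlap, and for EDA2R and for MDM2 the same genomic site was counted repeatedly in overlapping windows. The ETS motif CCGGAAG was in 3 windows (8.11%, against 10.3%), those of AEN, FDXR and TRAF4. A match describes letters only, and response elements further away, such as those in introns, lie outside these windows.

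Afatinib treatment regulated 6 of the genes at 24 h in at least 1 line, and they moved in both directions. AEN, PLK3, GDF15 and TIGAR fell and BTG2 and RNF144B rose, while no p53 target gene changed in Hs746T cells. Libraries of whole cultures do not tell fewer expressing cells from less RNA per cell. In NCI-N87 cells 5 of 26 tested genes were regulated at 24 h, where 29.6% of all genes were. The number was 3 of 26 in MKN7 cells (13.5% of all genes) and 2 of 27 in MKN1 cells (4.19% of all genes). At 4 h it was 4 in NCI-N87 (3.24% of all genes), 2 in MKN7 (3.4%) and 2 in MKN1 cells (0.681%). The median log2FC of the p53 target genes at 24 h was -0.18 in NCI-N87 cells, where the median of all genes was 0.03, 0.09 in MKN7 cells (0.04) and 0.04 in MKN1 cells (0.01). Hs746T cells had 0 regulated genes at 4 h and at 24 h (0% of all genes, with edgeR and with DESeq2). At an unadjusted p below 0.05, 2 p53 target genes passed there at 4 h and 1 at 24 h, and 1371 and 330 of all genes.

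**Figure D1:**
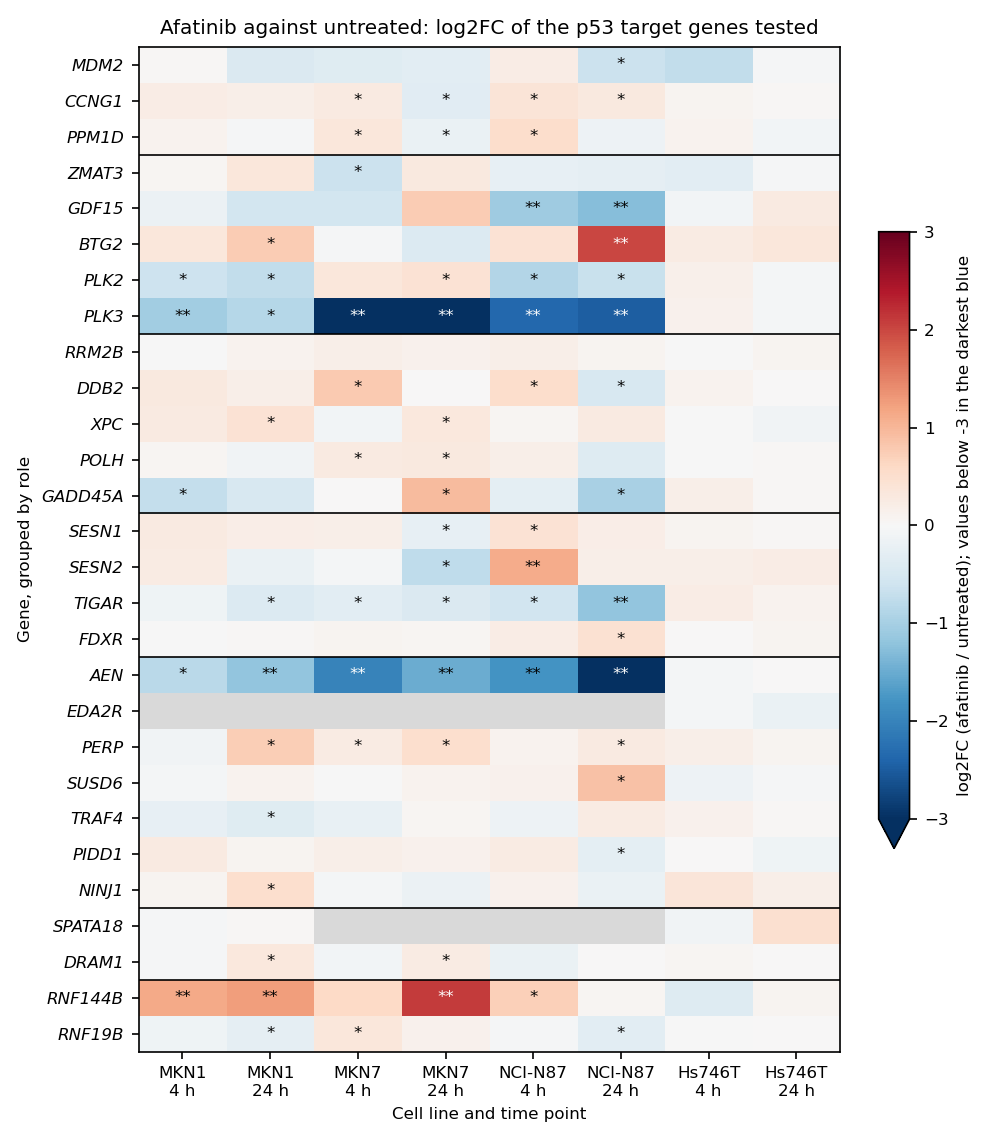
Log2FC after afatinib against untreated cells, as colour, for the 28 tested p53 target genes in rows grouped by role and for each cell line and time point in columns; 1 asterisk marks an adjusted p below 0.05, 2 asterisks a regulated gene, and grey a gene not tested. AEN and PLK3 are the dark blue rows in MKN1, MKN7 and NCI-N87 cells (down to -3.20), RNF144B in MKN7 and BTG2 in NCI-N87 cells at 24 h are the darkest red cells (2.10 and 2.0), and the Hs746T columns stay between -0.75 and 0.49.

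Without the limit on the fold change, changes in either direction were about equal in number in MKN1 and MKN7 cells at 24 h. In MKN1 cells 6 p53 target genes were higher and 6 lower (12.2% and 13.3% of all genes), and in MKN7 cells 7 and 7 (26.6% and 25%). In NCI-N87 cells 5 were higher and 10 lower (31.5% and 31%). At 4 h the numbers were 1 higher and 4 lower in MKN1 (1.27% and 2.41%), 6 and 4 in MKN7 (10.1% and 12.1%) and 6 and 5 in NCI-N87 cells (9.06% and 9.1%). PLK3, TIGAR and AEN were lower at 24 h in all 3 of these lines, and PERP was higher in all 3. Of the 28 genes tested in any line, 9 changed at 24 h only upwards, 12 only downwards, 3 upwards in 1 line and downwards in another (PLK2, CCNG1 and GADD45A) and 4 in no line (ZMAT3, RRM2B, SPATA18 and EDA2R). This tally over the lines was not made for all genes, so it cannot be told apart from the general response.

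AEN (ENSG00000181026, chromosome 15 from 88621296 to 88632282), which encodes a nuclease that helps to degrade DNA in apoptosis, showed the largest decrease. In NCI-N87 cells its level was 76.9, 75.2 and 87.4 CPM in the untreated libraries of 24 h and 8.0, 7.27 and 11.4 CPM after afatinib. No treated library came near the untreated ones, and the decrease was 9.20-fold (log2FC -3.20, SE 0.17, adjusted p = 1.01e-12, edgeR). At 4 h the same cells had 80.7, 84.0 and 82.7 CPM untreated and 24.7, 20.8 and 25.5 CPM treated (log2FC -1.80, SE 0.16, adjusted p = 5.49e-08). In MKN7 cells AEN was at 106.8, 96.9 and 107.6 CPM untreated and 32.1, 22.9 and 24.9 CPM treated at 4 h, and at 54.2, 54.9 and 72.5 CPM and 21.1, 21.3 and 23.2 CPM at 24 h. The groups did not overlap at either time (log2FC -2.0, SE 0.14, and -1.48, SE 0.13). MKN1 cells had 17, 17.4 and 22.1 CPM untreated and 9.49, 8.68 and 6.89 CPM treated at 24 h (log2FC -1.19, SE 0.13, adjusted p = 1.58e-07), and the decrease at 4 h was below the limit (log2FC -0.82, SE 0.13). Without replicate 3 the 24 h value in MKN1 cells was -0.93 and no longer counted as regulated. In Hs746T cells the treated libraries at 24 h (75.2, 63.7 and 74.5 CPM) lay within the range of the untreated libraries (81.8, 61 and 67.3 CPM), with a log2FC of 0.02 (SE 0.11).

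PLK3 (ENSG00000173846, chromosome 1 from 44800225 to 44805990), a stress-responsive kinase of the polo family, fell early and stayed low. In MKN7 cells it was at 47.7, 38.9 and 63.5 CPM untreated and 7.89, 5.75 and 5.90 CPM treated at 4 h, and at 21.5, 19.4 and 44.4 CPM and 3.96, 2.42 and 4.34 CPM at 24 h. Untreated libraries of MKN7 cells varied more than 2-fold at 24 h, yet every treated library lay below all of them (log2FC -2.98, SE 0.32, adjusted p = 7.83e-07 at 4 h, and -3.01, SE 0.33, adjusted p = 2.54e-07 at 24 h). NCI-N87 cells had 20.6, 27.1 and 22 CPM untreated and 4.63, 4.78 and 4.08 CPM treated at 4 h, and 21.2, 21.8 and 16.5 CPM and 3.46, 3.70 and 3.82 CPM at 24 h. The decrease there was 5.14-fold at 4 h and 5.55-fold at 24 h. In MKN1 cells the level went from 47.8, 49.4 and 51.1 CPM to 21.8, 26.2 and 24.8 CPM at 4 h (log2FC -1.04, SE 0.15, adjusted p = 1.67e-05). It fell inside the limit with scaling by library size alone (-0.94) and just inside it without replicate 1. The 24 h value in MKN1 cells, -0.85 (SE 0.15), was a change but below the limit. PLK3 is among the genes with a neighbour on the opposite strand.

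GDF15 (ENSG00000130513, chromosome 19 from 18374731 to 18389176) encodes a secreted stress cytokine and was abundant in NCI-N87 cells alone. Its level there was 332, 460 and 356 CPM untreated and 204, 166 and 177 CPM treated at 4 h, and 357, 324 and 263 CPM and 188, 95.6 and 112 CPM at 24 h. All treated libraries lay below all untreated ones (log2FC -1.06, SE 0.23, adjusted p = 0.00188 at 4 h, and -1.29, SE 0.23, adjusted p = 4.63e-05 at 24 h). Without replicate 2 the 4 h value was -0.86 with an adjusted p of 0.0699. In the other lines GDF15 did not exceed 4.04 CPM in untreated cells and did not change. TIGAR (ENSG00000078237, chromosome 12 from 4307763 to 4354593), a phosphatase that lowers glycolytic flux, was at 26.1, 27.1 and 29.5 CPM untreated and 11.2, 11.6 and 14.3 CPM treated in NCI-N87 cells at 24 h (log2FC -1.19, SE 0.12, adjusted p = 1.40e-08). With scaling by library size alone this TIGAR value was -0.93. TIGAR had a log2FC of -0.42 in MKN1 cells (SE 0.12) and of -0.42 in MKN7 cells (SE 0.09) at 24 h, where the treated libraries also lay below the untreated ones.

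BTG2 (ENSG00000159388, chromosome 1 from 203305491 to 203309602), an antiproliferative cofactor of mRNA deadenylation, rose in NCI-N87 cells from 12.7, 10.9 and 7.47 CPM to 54.5, 35.3 and 37.5 CPM at 24 h. The increase was 4.01-fold (log2FC 2.0, SE 0.22, adjusted p = 8.97e-08), while at 4 h the log2FC was 0.43 (SE 0.22) and missed the threshold (adjusted p = 0.21). In MKN1 cells BTG2 rose from 11.1, 7.82 and 7.5 CPM to 16.3, 13.2 and 15.8 CPM (log2FC 0.76, SE 0.17). In MKN7 cells at 24 h the treated libraries (4.81, 2.97 and 5.72 CPM) overlapped the untreated ones (5.96, 5.01 and 6.99 CPM), with a log2FC of -0.42 (SE 0.18, adjusted p = 0.057).

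RNF144B (ENSG00000137393, chromosome 6 from 18387350 to 18468874), an E3 ubiquitin ligase whose known substrates include p21, was regulated upwards in MKN1 and MKN7 cells. In MKN1 cells it was at 5.40, 3.84 and 3.64 CPM untreated and 10.6, 8.43 and 9.92 CPM treated at 4 h, and at 24.7, 13.8 and 13.8 CPM and 46.2, 27.1 and 52.1 CPM at 24 h. Every treated library exceeded every untreated library of its time point (log2FC 1.14, SE 0.24, adjusted p = 0.00399 at 4 h, and 1.25, SE 0.23, adjusted p = 1.13e-04 at 24 h). Without replicate 3 the adjusted p was 0.218 at 4 h and 0.0909 at 24 h. In MKN7 cells at 24 h it rose from 2.95, 3.55 and 2.26 CPM to 10.1, 18.9 and 8.97 CPM (log2FC 2.10, SE 0.33, adjusted p = 2.21e-05). In NCI-N87 cells it rose at 4 h from 2.13, 1.904 and 1.44 CPM to 3.41, 2.88 and 2.64 CPM, a change below the limit (log2FC 0.71, SE 0.21, adjusted p = 0.0207). The same cells had 1.75, 2.04 and 1.61 CPM untreated and 1.82, 2.22 and 1.74 CPM treated at 24 h, and the groups overlapped (log2FC 0.06, SE 0.21).

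**Figure D2:**
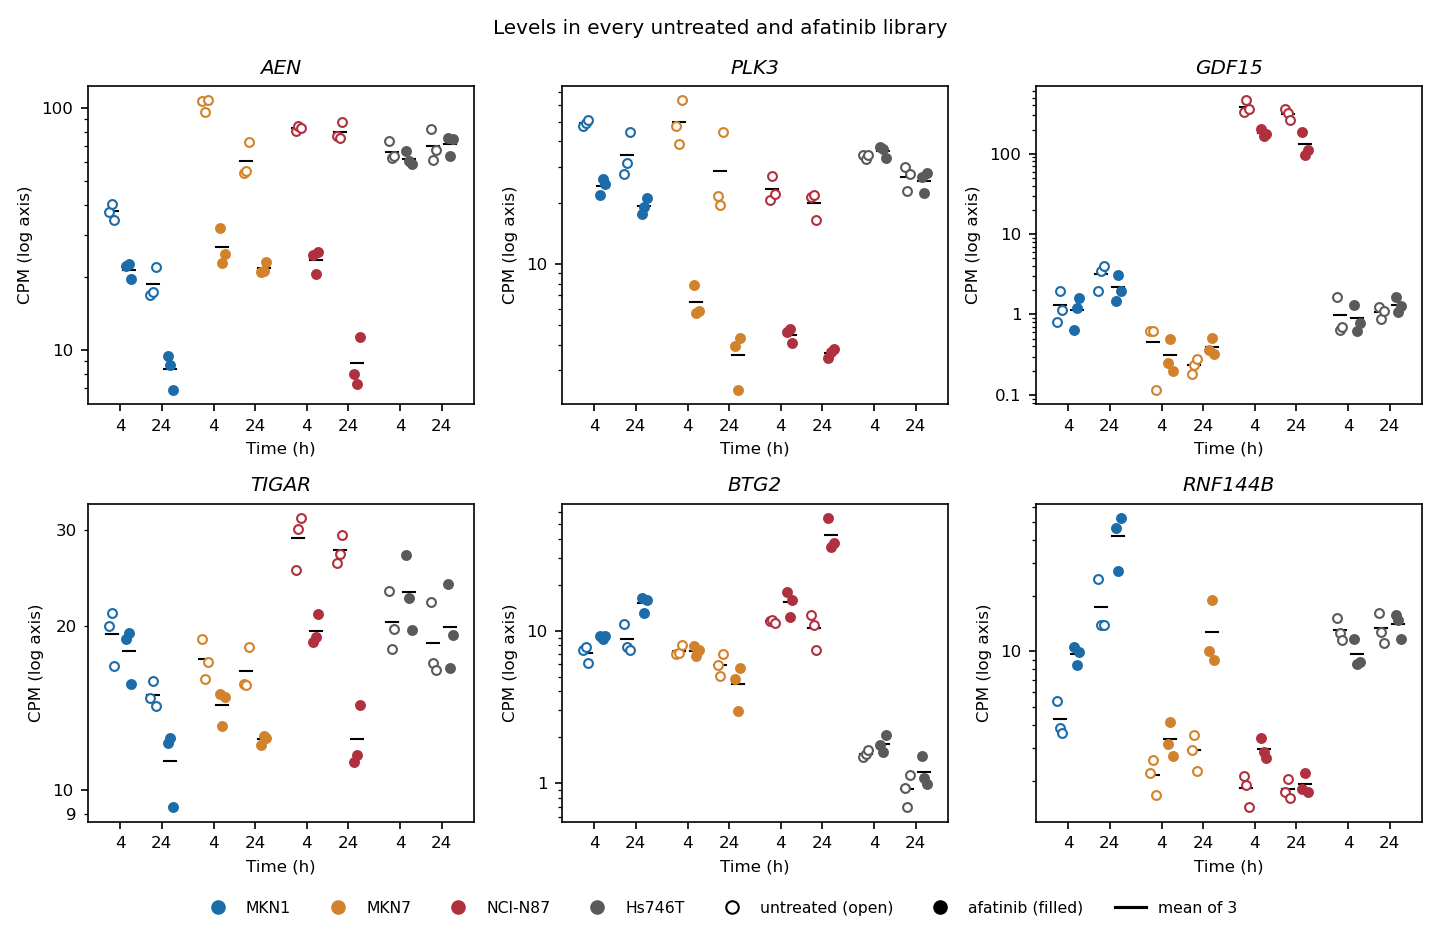
CPM of AEN, PLK3, GDF15, TIGAR, BTG2 and RNF144B on a log axis in each untreated library (open circles) and afatinib library (filled circles), by cell line and time point, with the mean of 3 as a bar. Filled circles lie below the open ones for AEN and PLK3 in NCI-N87, MKN7 and MKN1 cells and overlap them in Hs746T cells, and GDF15 is high in NCI-N87 cells alone.

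None of the 3 feedback genes was regulated in any line. MDM2, the ubiquitin ligase of p53, was lower in NCI-N87 cells at 24 h, with 29.6, 40.1 and 49.7 CPM untreated and 21.2, 29.3 and 27.5 CPM treated (log2FC -0.65, SE 0.23, adjusted p = 0.017), and did not pass the threshold in any other line or at 4 h. CCNG1, cyclin G1, which recruits a phosphatase to MDM2, was higher at 4 h in MKN7 and NCI-N87 cells (log2FC 0.26 and 0.40). At 24 h it was lower in MKN7 cells (log2FC -0.33, SE 0.07) and higher in NCI-N87 cells (log2FC 0.28, SE 0.11). PPM1D, the phosphatase WIP1 that switches off the damage response, was higher at 4 h in MKN7 cells (log2FC 0.35, SE 0.08) and in NCI-N87 cells, from 24.5, 24.4 and 25.2 CPM to 34.6, 37.5 and 34.4 CPM (log2FC 0.53, SE 0.08, adjusted p = 6.0e-05). At 24 h it was slightly lower in MKN7 cells (log2FC -0.19, SE 0.08), with overlapping groups.

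Among the genes of growth arrest, PLK2, a further kinase of the polo family, fell in MKN1 cells from 210, 189 and 217 CPM to no more than 128 CPM in each library at 24 h (log2FC -0.74, SE 0.18) and in NCI-N87 cells from 50.1, 51.2 and 52.4 CPM to 28, 30.2 and 40 CPM (log2FC -0.68, SE 0.14). In MKN7 cells it rose from 248, 226 and 163 CPM to 308, 264 and 297 CPM (log2FC 0.44, SE 0.16). The groups did not overlap in these 3 lines and overlapped in Hs746T cells (log2FC -0.06, SE 0.08). ZMAT3, an RNA-binding regulator of splicing, was lower in MKN7 cells at 4 h (log2FC -0.64, SE 0.16) and had values of -0.27 to 0.35 at 24 h in MKN1, MKN7 and NCI-N87 cells, none of which passed.

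Of the 5 DNA repair genes, 3 were higher and none lower in MKN7 cells at 24 h, 2 were lower and none higher in NCI-N87 cells, and 1 was higher in MKN1 cells. The shares of all genes were 26.6% higher in MKN7, 31% lower in NCI-N87 and 12.2% higher in MKN1 cells. DDB2, which recognises UV damage, rose at 4 h in MKN7 cells from 29.3, 30.8 and 28.6 CPM to 50.8, 52.7 and 53.3 CPM (log2FC 0.78, SE 0.08, adjusted p = 1.8e-07) and in NCI-N87 cells from 30.1, 25.5 and 32.8 CPM to 43.5, 38.8 and 45 CPM (log2FC 0.53, SE 0.13). At 24 h it was lower in NCI-N87 cells, with 31.3, 28.2 and 30.1 CPM untreated and 19.5, 21.2 and 25.4 CPM treated (log2FC -0.47, SE 0.13), and at 0.02 (SE 0.07) in MKN7 cells. XPC, a damage sensor of nucleotide excision repair, was higher at 24 h in MKN1 (log2FC 0.42, SE 0.09) and MKN7 cells (log2FC 0.32, SE 0.12). POLH, the polymerase that passes UV lesions, was higher in MKN7 cells at 4 h and 24 h (log2FC 0.28 and 0.30). RRM2B, a ribonucleotide reductase subunit, passed nowhere, with values between 0.09 and 0.12 at 24 h in the 3 lines that answered to afatinib.

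GADD45A, a stress sensor that binds PCNA and cyclin-dependent kinase complexes, went in opposite directions. In MKN7 cells it rose at 24 h from 108.9, 102.6 and 107.9 CPM to 185, 179 and 252 CPM (log2FC 0.94, SE 0.16, adjusted p = 4.1e-05). NCI-N87 cells had 43.2, 43.3 and 45.9 CPM untreated and 22.1, 19.9 and 27.6 CPM treated (log2FC -0.96, SE 0.18, adjusted p = 9.2e-05). In MKN1 cells it was lower at 4 h (log2FC -0.70, SE 0.19), and the 24 h value of -0.48 (SE 0.20) did not pass.

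The metabolic genes included SESN2, a sestrin that restrains mTORC1 and is also raised by amino acid stress. It rose in NCI-N87 cells at 4 h from 20.4, 38.7 and 23.2 CPM to 49.3, 53.3 and 73.7 CPM, with no overlap (log2FC 1.10, SE 0.25, adjusted p = 0.0027), and without replicate 3 the adjusted p was 0.0751. At 24 h SESN2 in NCI-N87 cells had a log2FC of 0.18 (SE 0.25), and in MKN7 cells it fell from 22.9, 28.1 and 26.3 CPM to 15.8, 15.4 and 14.9 CPM (log2FC -0.76, SE 0.08). SESN1, its relative, was higher at 4 h in NCI-N87 cells (log2FC 0.43, SE 0.10) and lower at 24 h in MKN7 cells (log2FC -0.25, SE 0.09). FDXR, which passes electrons to mitochondrial cytochrome P450 enzymes, was higher at 24 h in NCI-N87 cells (log2FC 0.45, SE 0.13).

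Of the cell death and survival genes, PERP, a desmosomal membrane protein, rose at 24 h from 182, 151 and 178 CPM to 293, 246 and 324 CPM in MKN1 cells (log2FC 0.74, SE 0.11, adjusted p = 1.6e-05) and from 220, 194 and 218 CPM to 321, 302 and 282 CPM in MKN7 cells (log2FC 0.51, SE 0.07). In NCI-N87 cells the groups overlapped (620, 527 and 532 CPM against 742, 588 and 753 CPM), with a log2FC of 0.28 (SE 0.11, adjusted p = 0.037). SUSD6, a membrane protein that restrains growth, rose in NCI-N87 cells from 37.8, 43.7 and 38.9 CPM to 75.7, 75.1 and 76.9 CPM at 24 h (log2FC 0.89, SE 0.09, adjusted p = 1.5e-08) and had a log2FC of 0.11 in MKN1 and in MKN7 cells. NINJ1, which ruptures the membrane of dying cells, was higher in MKN1 cells (log2FC 0.49, SE 0.14), and TRAF4, a signalling adaptor, was lower there (log2FC -0.37, SE 0.09). PIDD1, the scaffold of the PIDDosome, was lower in NCI-N87 cells (log2FC -0.29, SE 0.10). Scaling by library size alone moved the median of all genes up by 0.26 in this comparison, close to the size of that decrease. EDA2R, a receptor of the tumour necrosis factor family, had a log2FC of -0.19 (SE 0.23) in Hs746T cells, where alone it could be tested.

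DRAM1, a lysosomal activator of autophagy, was slightly higher at 24 h in MKN1 (log2FC 0.32, SE 0.12, adjusted p = 0.04) and MKN7 cells (log2FC 0.25, SE 0.08). SPATA18, a mitochondrial quality control protein, stood at most at 0.512 CPM in any untreated library, and neither of its tested lines showed a change (log2FC 0.04 in MKN1, 0.49 in Hs746T cells at 24 h). RNF19B, an E3 ligase of natural killer cells, was lower at 24 h in MKN1 (log2FC -0.28, SE 0.08) and NCI-N87 cells (log2FC -0.32, SE 0.12), and higher at 4 h in MKN7 cells (log2FC 0.33, SE 0.10). The NCI-N87 value is close in size to the shift of 0.26 under scaling by library size alone.

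The difference between 24 h and 4 h in the effect of afatinib was tested as an interaction, called by an adjusted p below 0.05 alone. It passed for 11 of 26 genes in NCI-N87 cells (35.8% of all genes), for 9 of 26 in MKN7 cells (18% of all genes) and for 1 of 27 in MKN1 cells (2.77% of all genes). In MKN1 cells this was PERP, whose effect was 0.85 higher at 24 h on the log2 scale (SE 0.16, adjusted p = 0.00316), and 3 genes passed there under the replicate block. The share of all genes under the block is not given for that count, so it cannot be set against the general response. BTG2 (1.58, SE 0.31) and SUSD6 (0.76, SE 0.12) gained in NCI-N87 cells between 4 h and 24 h. AEN (-1.40, SE 0.22), DDB2 (-1.0, SE 0.18), SESN2 (-0.92, SE 0.35), MDM2 (-0.88, SE 0.32) and PPM1D (-0.68, SE 0.11) had a lower effect at 24 h in these cells. RNF144B (1.51, SE 0.48), GADD45A (0.94, SE 0.22) and ZMAT3 (0.93, SE 0.22) gained in MKN7 cells, where DDB2 (-0.76, SE 0.11) and SESN2 (-0.70, SE 0.12) lost. PLK3 is not among these genes, with differences of 0.19 (SE 0.21) in MKN1, -0.02 (SE 0.43) in MKN7 and -0.11 (SE 0.16) in NCI-N87 cells. Hs746T cells had 0 of 28 genes (0% of all genes, edgeR and DESeq2), and 0 p53 target genes and 389 of all genes at an unadjusted p below 0.05.

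Differences between cell lines in the 24 h effect of afatinib were tested in a single fit of all libraries, again as interactions with an adjusted p below 0.05. NCI-N87 and MKN7 cells differed in 14 of 28 genes (21.4% of all genes), NCI-N87 and Hs746T cells in 11 (35.1%) and NCI-N87 and MKN1 cells in 10 (28%). MKN7 and Hs746T cells differed in 8 (18.8%), MKN7 and MKN1 cells in 6 (7.61%) and MKN1 and Hs746T cells in 4 (4.41%). Under the replicate block the counts rose to 17 for NCI-N87 against MKN1 (41.3% of all genes under the block), 13 for MKN7 against Hs746T (32.3%), 12 for MKN7 against MKN1 (20.9%) and 10 for MKN1 against Hs746T cells (17%). Without 1 replicate the counts were 7 (replicate 3) to 11 for NCI-N87 against MKN7, 7 (replicate 2) to 9 for NCI-N87 against Hs746T, 6 (replicate 3) to 9 for NCI-N87 against MKN1, 3 (replicate 3) to 7 for MKN7 against Hs746T, 4 to 5 for MKN7 against MKN1 and 0 (replicate 3) to 4 for MKN1 against Hs746T cells.

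AEN was among the differing genes in 5 of the 6 pairs of lines, MKN7 against MKN1 being the exception. Its effect was lower in NCI-N87 than in MKN7 cells by -1.70 (SE 0.20, adjusted p = 2.69e-11) and than in MKN1 cells by -2.0 (SE 0.20). PLK3 fell more in MKN7 than in MKN1 cells (difference -2.16, SE 0.27) and more in NCI-N87 than in MKN1 cells (-1.61, SE 0.27). BTG2 separated NCI-N87 from MKN7 cells most (2.45, SE 0.27, adjusted p = 4.80e-12), and RNF144B went the other way in this pair (-2.02, SE 0.39). GADD45A (-1.88, SE 0.28) and PLK2 (-1.09, SE 0.21) had lower effects and CCNG1 (0.64, SE 0.12) a higher effect in NCI-N87 than in MKN7 cells after changing in opposite directions in these lines. SPATA18 is also counted in the NCI-N87 pairs with Hs746T and MKN1, on 1, 0 and 3 counts in the untreated libraries and 9, 18 and 3 counts in the treated libraries of NCI-N87 cells.

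Trastuzumab alone regulated 0 of the p53 target genes in all 8 comparisons (0% of all genes in each, edgeR and DESeq2). At an unadjusted p below 0.05 there was 1 p53 target gene in NCI-N87 cells at 4 h, 1 in MKN7 cells at 24 h and 0 in the other 6 comparisons, and at most 786 of all genes. The largest log2FC of a p53 target gene after trastuzumab was 0.45, in NCI-N87 cells at 4 h.

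Afatinib was also given on top of trastuzumab, and trastuzumab + afatinib against trastuzumab shares no library with afatinib against untreated cells. In NCI-N87 cells at 24 h 5 genes were regulated in this comparison (28.2% of all genes), the same AEN, PLK3, GDF15, TIGAR and BTG2 in the same directions. In MKN7 cells at 24 h the 3 regulated genes (9.7%) were again AEN, PLK3 and RNF144B, and in MKN1 cells the 2 regulated genes (4.22%) again AEN and RNF144B, neither of which remained without replicate 3. At 4 h AEN, PLK3 and GDF15 were regulated in NCI-N87 cells (4% of all genes), AEN, PLK3 and RNF144B in MKN7 cells (2.96%) and PLK3 in MKN1 cells (0.631%). AEN had a log2FC of -3.20 (SE 0.17) in NCI-N87 cells at 24 h with trastuzumab present, and -3.20 without it. SESN2 in NCI-N87 cells and RNF144B in MKN1 cells at 4 h were regulated without trastuzumab alone, with a log2FC just below the limit in its presence (0.98 for each). RNF144B in MKN7 cells at 4 h was regulated with trastuzumab alone (log2FC 1.05, SE 0.35, adjusted p = 0.0392, against 0.59, SE 0.35), and it was lost when any 1 replicate was left out. The median absolute difference of the paired log2FC values was lowest for MKN1 cells at 4 h (0.04) and highest for NCI-N87 cells at 24 h (0.11). In NCI-N87 cells at 24 h MDM2 differed most between the comparisons, by 0.53 on the log2 scale. Hs746T cells had 0 regulated genes at both time points (0% of all genes, edgeR and DESeq2), with 0 p53 target genes and 232 and 190 of all genes at an unadjusted p below 0.05.

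**Figure D3:**
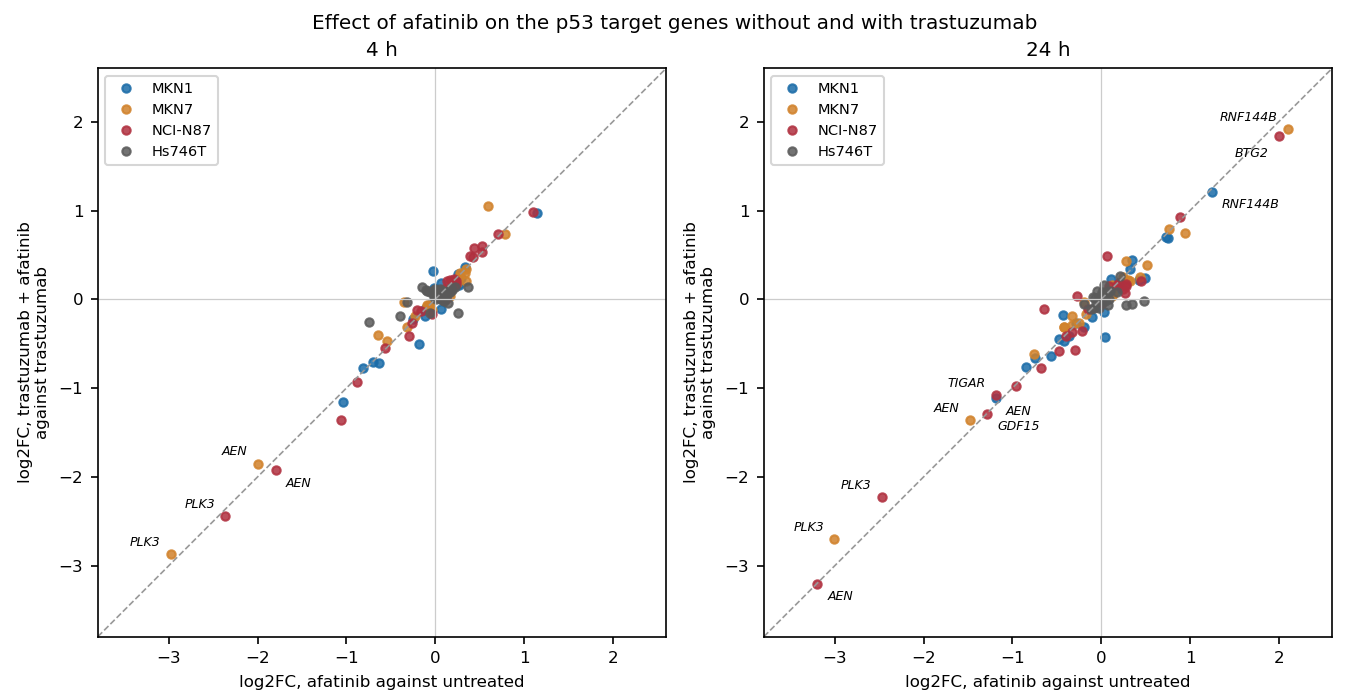
Log2FC of each tested p53 target gene after afatinib against untreated cells (horizontal axis) and after trastuzumab + afatinib against trastuzumab (vertical axis), at 4 h and 24 h, with 1 point per gene and cell line. The points follow the dashed line of equal effects, from AEN in NCI-N87 cells at -3.20 on both axes to RNF144B in MKN7 cells at 2.10 and 1.92.

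In MKN1 cells EGF lowered RNF144B and raised AEN, PLK3 and GADD45A, and cetuximab raised RNF144B and lowered AEN and PLK3. The EGF, cetuximab and afatinib comparisons share their untreated libraries, so the values are set side by side only. RNF144B, at 5.40, 3.84 and 3.64 CPM untreated, was at 2.08, 1.66 and 1.75 CPM with EGF and at 11.2, 6.87 and 9.53 CPM with cetuximab at 4 h. At 24 h, with 24.7, 13.8 and 13.8 CPM untreated, it was at 2.95, 2.35 and 2.86 CPM with EGF and at 40.6, 34.7 and 39.9 CPM with cetuximab. No library of these groups overlapped with the untreated ones. The log2FC after EGF was -1.22 (SE 0.27, adjusted p = 0.00285) at 4 h and -2.66 (SE 0.25, adjusted p = 1.37e-09) at 24 h. After cetuximab it was 1.08 (SE 0.25, adjusted p = 0.0129) and 1.12 (SE 0.23, adjusted p = 0.00161). Leaving out replicate 3 ended the calls at 4 h after EGF (adjusted p = 0.0635) and after cetuximab at 4 h (0.477) and 24 h (0.174).

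At 24 h AEN was at 17, 17.4 and 22.1 CPM untreated, 40.5, 35.1 and 36.1 CPM with EGF and 10.8, 11.6 and 9.83 CPM with cetuximab. The 3 groups did not overlap (log2FC 1.00, SE 0.13, adjusted p = 3.35e-07 after EGF, and -0.83, SE 0.13, after cetuximab). The EGF value lay on the limit of 1, and it was 0.81 with scaling by library size alone. GADD45A was raised by EGF at 4 h from 61.6, 66.2 and 49 CPM to 117.5, 122.4 and 92.5 CPM (log2FC 0.92, SE 0.19) and at 24 h (log2FC 0.72, SE 0.19). PLK3 was higher after EGF (log2FC 0.57 at 4 h and 0.46 at 24 h) and lower after cetuximab (log2FC -0.89 and -0.63). BTG2 was lower with EGF at 24 h (log2FC -0.81, SE 0.18) and higher with cetuximab (log2FC 0.83, SE 0.17), and TIGAR was higher with EGF (0.49, SE 0.12) and lower with cetuximab (-0.35, SE 0.12).

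PERP was higher in both conditions (log2FC 0.34 with EGF and 0.45 with cetuximab at 24 h). PIDD1 (-0.59, SE 0.10), RRM2B (-0.28), SESN1 (-0.28) and XPC (-0.24) were lower after EGF at 24 h, RNF19B was higher (0.43) and XPC lower (-0.35) after EGF at 4 h, and TRAF4 was lower after cetuximab at 24 h (-0.35). By the criteria of the study, EGF regulated RNF144B alone at 4 h (1.48% of all genes) and RNF144B and AEN at 24 h (8.36%), and cetuximab RNF144B alone at 4 h (0.333%) and at 24 h (1.33%). Under the replicate block 2 genes were regulated after EGF at 4 h and 2 after cetuximab at 24 h, with no share of all genes under the block beside them. EGF + cetuximab against EGF regulated 0 genes at 4 h (0.126% of all genes) and 0 at 24 h (0.156%), with edgeR and with DESeq2. At an unadjusted p below 0.05, 1 and 4 p53 target genes passed, and 1354 and 2046 of all genes. RNF144B had 6.23, 4.25 and 5.12 CPM with EGF + cetuximab at 24 h, above the EGF libraries without overlap (log2FC 0.92, adjusted p = 0.0927).

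**Figure D4:**
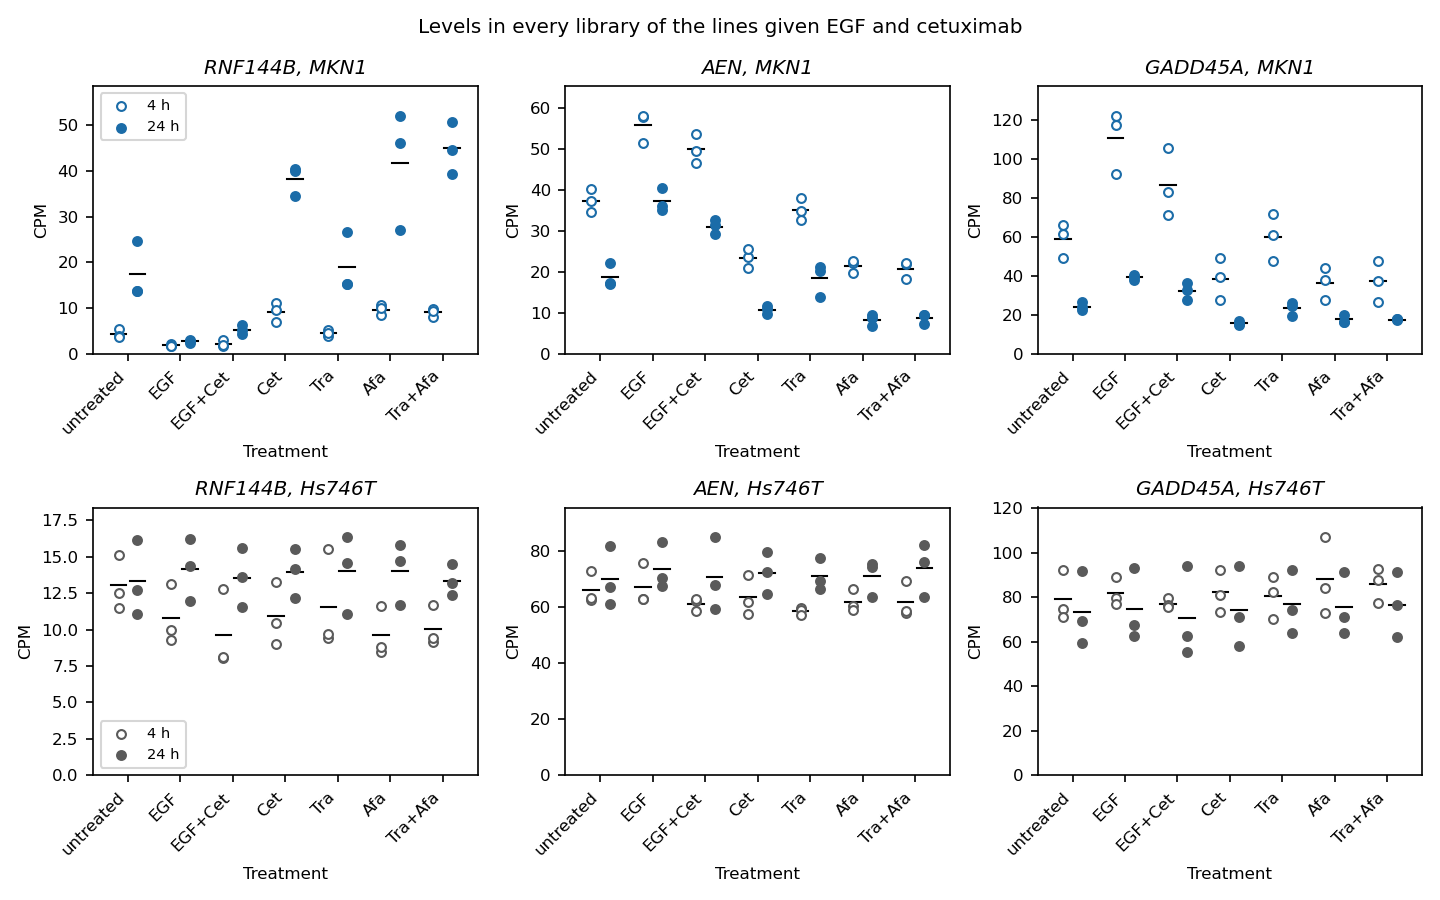
CPM of RNF144B, AEN and GADD45A in each library of MKN1 (upper row) and Hs746T cells (lower row) by treatment, at 4 h (open circles) and 24 h (filled circles), with the mean of 3 as a bar. In MKN1 cells RNF144B is lowest with EGF (2.35 to 2.95 CPM at 24 h) and AEN highest with EGF (35.1 to 40.5 CPM), while in Hs746T cells RNF144B stays between 8.07 and 16.3 CPM in all treatments.

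Hs746T cells had 0 regulated p53 target genes after EGF, after cetuximab and after EGF + cetuximab against EGF at either time point (0% of all genes in each, edgeR and DESeq2). At an unadjusted p below 0.05 there were 0 p53 target genes in each of these comparisons, and at most 364 of all genes.

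Some of these genes also differed between the untreated cells of 24 h and of 4 h. The cause was not tested. Untreated MKN1 cells at 24 h had more RNF144B (log2FC 1.99, SE 0.24, adjusted p = 1.26e-07) and GDF15 (1.27, SE 0.50, adjusted p = 0.0467) and less GADD45A (-1.30, SE 0.20) and AEN (-1.01, SE 0.13) than at 4 h. These 4 were the regulated genes among 27, where 8.06% of all genes were regulated. AEN fell inside the limit with scaling by library size alone (-0.84) and without replicate 1 (-0.95) or 2 (-0.89), and GDF15 no longer passed without replicate 2 (adjusted p = 0.0557) or 3 (0.328) or with DESeq2 (0.0508). By adjusted p alone 12 genes changed (34.1% of all genes). In MKN7 cells 0 genes were regulated (1.76% of all genes), 13 had an unadjusted p below 0.05 (5619 of all 18483 genes), and 7 changed by adjusted p (16.4% of all genes). These were AEN (-0.81, SE 0.13), CCNG1, DDB2, PIDD1, PPM1D, RNF19B and SUSD6. In NCI-N87 cells 0 were regulated (0.0472%), with 1 under DESeq2 and 1 with the replicate number as a block, and 6 had an unadjusted p below 0.05 (1793 of all 19078 genes), with 0 by adjusted p (0.267%). Hs746T cells had 0 regulated as well (0.129%), with 6 at an unadjusted p below 0.05 (1930 of all 18667 genes) and 2, PLK2 and RNF19B, by adjusted p (1.48%). DESeq2 also gave 0 in MKN7 and Hs746T cells.

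Between the untreated lines the spread differed from gene to gene. EDA2R and SPATA18, near the limit of detection in the lowest line, were given no ratio. For the other 26 genes, the median of 6 untreated libraries was compared between the highest and the lowest line. The ratio was 2.4 at the middle of the ranking. Among these genes 7 stayed below 2-fold, 18 lay between 2-fold and 10-fold and 1, GDF15, exceeded 10-fold. These ratios were not computed for all genes, so they cannot be told apart from the general spread between the lines. DDB2 varied least, with medians from 30.1 CPM in NCI-N87 to 39.4 in Hs746T cells, and each line overlapped with the next in this order.

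GDF15 ranged from 263 to 460 CPM in NCI-N87 cells, from 0.81 to 4.04 in MKN1, from 0.641 to 1.64 in Hs746T and from 0.117 to 0.621 in MKN7 cells. MKN1 and Hs746T cells overlapped in this order, whereas NCI-N87 stood above and MKN7 below the others (log2FC 10.06, SE 0.35, adjusted p = 3.26e-46 between NCI-N87 and MKN7 cells). EDA2R was seen in Hs746T cells at 4.18 to 9.91 CPM and at no more than 0.121 CPM in any untreated library of the other lines. RNF144B had its highest median over both time points in Hs746T cells (11.1 to 16.2 CPM), overlapping with MKN1 (3.64 to 24.7), and was lower in MKN7 (1.68 to 3.55) and NCI-N87 cells (1.44 to 2.13), which overlapped each other. At 24 h its mean was higher in MKN1 than in Hs746T cells (17.4 against 13.3 CPM), and at 4 h it was lower (4.30 against 13.04 CPM).

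PERP (527 to 712 CPM), FDXR (42.1 to 60.5 CPM) and TIGAR (25.4 to 31.6 CPM) were highest in NCI-N87 cells without overlap with the next line. PLK2 fell into a high pair, MKN1 (189 to 314 CPM) and MKN7 (at most 248 CPM), and a low pair, NCI-N87 (50.1 to 67.3 CPM) and Hs746T (34.7 to 54.7 CPM). BTG2 was low in Hs746T cells alone (0.693 to 1.65 CPM, against 5.01 to 12.7 CPM elsewhere), and AEN was low in MKN1 cells alone (17 to 40.4 CPM, against 54.2 to 107.6 CPM). TRAF4 was highest in MKN1 cells (240 to 268 CPM), followed by NCI-N87 cells (at most 193 CPM).

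**Figure D5:**
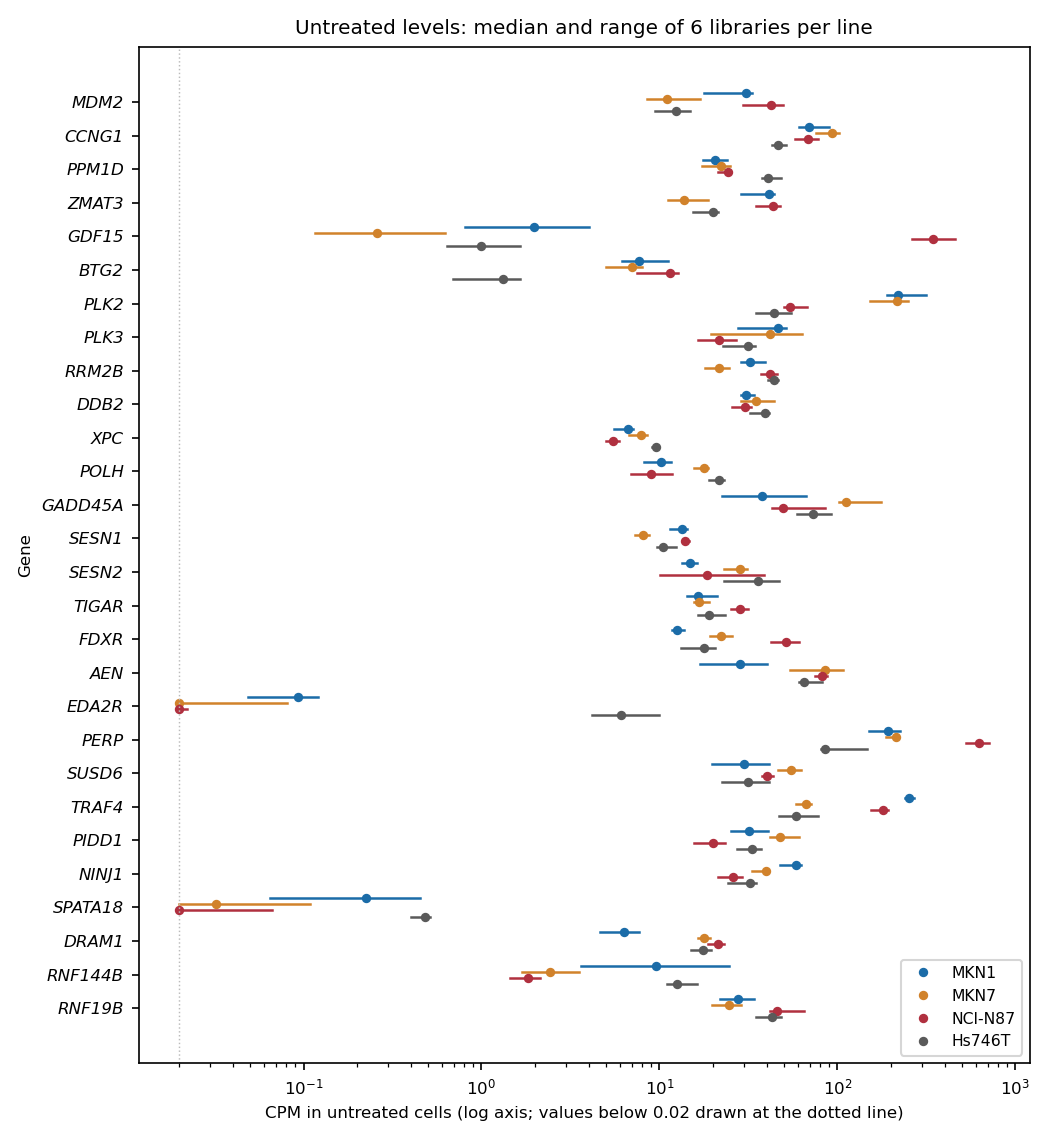
Level of 28 p53 target genes in untreated cells on a log axis, with the median (point) and the range (line) of 6 libraries per cell line; values below 0.02 CPM are drawn at the dotted line. GDF15 spans from below 1 CPM in MKN7 to 344 CPM in NCI-N87 cells, and EDA2R stands out in Hs746T cells. Line medians are at least 2-fold apart for 19 of 26 genes, a count that was not made for all genes.

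Per kilobase of exon, GDF15 was the most abundant of these genes in NCI-N87 cells (165 CPM per kb), followed by PERP (146). GADD45A led in MKN7 (54.2) and Hs746T cells (35.2), and the means kept these orders at both time points. Some gaps at 24 h were smaller than the spread between replicates (SD). This was so for GADD45A (51.5 ± 1.64) and PERP (49.1 ± 3.275) in MKN7 cells. It was also so for GDF15 (150.8 ± 22.7) and PERP (130.5 ± 12.2) in NCI-N87 cells. In MKN1 cells PLK2 (57.2 ± 9.85 CPM per kb, SD, n = 3) and TRAF4 (55.5 ± 2.95) differed by less than the spread between replicates at 4 h, and TRAF4 stood above PLK2 at 24 h (54.7 ± 2.45 against 43.1 ± 3.06). MDM2 stood low in all 4 lines, from 0.834 CPM per kb in MKN7 to 3.18 in NCI-N87 cells.

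Tested over the 6 pairs of lines by the criteria of the study, the number of regulated genes among 28 was below the share of all genes in each pair. It was 11 between MKN1 and Hs746T (47.8% of all genes), 7 between MKN7 and Hs746T (45.9%), 10 between MKN7 and MKN1 (41.4%), 11 between NCI-N87 and Hs746T (49.1%), 10 between NCI-N87 and MKN1 (45.9%) and 9 between NCI-N87 and MKN7 cells (44.4%). The gap to the share of all genes was not tested, and the 6 pairs reuse the same 4 lines. EDA2R and SPATA18 are counted in some of these pairs on levels near the limit of detection in both lines.

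Of 16 regulators and relatives of p53, 15 were tested, and afatinib regulated them in NCI-N87 cells at 24 h alone, where 4 were lower (29.6% of all genes were regulated in either direction): TP73, a relative of p53 (log2FC -1.71, SE 0.12), and the damage kinases PRKDC (-1.69), CHEK1 (-1.46) and ATR (-1.06). Among 20 further p53 target genes, afatinib regulated 6 upwards and 6 downwards in that comparison with its share of 29.6%, including ABHD4 (2.06, SE 0.13), BBC3, the BH3-only protein PUMA (1.79, SE 0.15), and TNFRSF10C, a decoy receptor of TRAIL (1.78, SE 0.36), and SFN, the 14-3-3 sigma protein (-1.84, SE 0.18). TNFRSF10C stood at a low level there, with means of 0.171 CPM untreated (SD 0.054) and 0.609 CPM treated (SD 0.14). CDKN1A, which encodes the cyclin-dependent kinase inhibitor p21, was regulated in MKN7 cells (log2FC -1.49, SE 0.36 at 4 h and -1.09, SE 0.36 at 24 h), changed in NCI-N87 cells (-0.45 and -0.86) and did not pass in MKN1 cells (-0.54 and 0.46). The untreated MKN7 libraries of CDKN1A varied widely at 24 h (30.65 ± 23.14 CPM, SD, against 14.51 ± 2.315 treated). At 4 h they were at 54.06 ± 16.13 CPM, against 19.76 ± 0.998 treated. EGF regulated it upwards in MKN1 cells at 4 h (log2FC 1.75, SE 0.19, adjusted p = 5.99e-08).

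Genes of ERK output, which read the activity of the MAP kinase pathway, were tested in the same libraries. All 11 tested ERK response genes were lower at 24 h in each of MKN1, MKN7 and NCI-N87 cells, with median log2FC of -2.65, -2.75 and -3.83. By adjusted p alone, cell cycle genes were lower at 24 h for 11 of 13 genes for MKN1, 13 for MKN7 and 12 for NCI-N87, and FOXO target genes higher for 7, 9 and 11 of 12. These counts leave out the limit on the fold change, so similar counts do not mean decreases of similar size. Of all genes, 13.3%, 25% and 31% were lower and 12.2%, 26.6% and 31.5% higher. Their part in the changes of the p53 target genes was not tested.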

How the data were processed

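RNA was sequenced from 4 gastric cancer cell lines, with 3 replicates per condition. Per the labels, mRNA was purified and libraries were directional and paired end, and the submitters' processing notes name hg38, Trim Galore and STAR. The program that counted reads is not given in the sources used here. The deposited values are raw counts per Ensembl gene identifier. No row lacked a gene. Gene types, positions and exon lengths came from GENCODE release 29, and symbols from a separate list of gene names.

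The quasi-likelihood test of edgeR 4.0.16 (R 4.3.3) was run on TMM-normalized counts after filterByExpr (minimum count 10, minimum total 15). Each cell line had its own fit, in which every treatment at every time point was a group, and a fit of all lines gave the differences between lines. P-values were adjusted over all genes tested (Benjamini-Hochberg). The 31 genes and all lists were chosen with earlier results of these data known, so they are described by counts and medians beside those of all genes. Values in every library are given for genes regulated after afatinib at 24 h or after EGF or cetuximab in MKN1 cells and for further genes chosen after their values were seen. Of the other lists, at most 4 regulated genes per comparison are named. The values of 1 gene of these lists are not reported here. The scripts were tested on simulated data.

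Same-numbered replicates were checked for pairing by the correlation of their deviations from the group means, with the numbers taken from the labels. In 37 of 40 comparisons every pair had r above 0.1 (range -0.02 to 0.62), and the replicate number as a block was therefore run beside each test. Other alternatives were DESeq2 1.42.0, scaling by library size, no filter on low counts, a floor of 10 counts per library, only the compared groups, and leaving out each replicate. No pair of replicates was identical. Promoter windows are RefSeq's (GRCh38.p14). Python 3.11.15 with matplotlib 3.10.9 drew the figures.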

Additional observations from a re-analysis of the deposited data

Results flagged for a closer look

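Afatinib effects at 24 h that differed between cell lines by the interaction test in edgeR (adjusted p below 0.05) were counted over 28 p53 target genes. The count was 4 for MKN1 against Hs746T (4.41% of all genes), 8 for MKN7 against Hs746T (18.8%) and 6 for MKN7 against MKN1 cells (7.61%). It was 11 for NCI-N87 against Hs746T (35.1%), 10 for NCI-N87 against MKN1 (28%) and 14 for NCI-N87 against MKN7 cells (21.4%). Effects that differed between 24 h and 4 h numbered 1 for MKN1 (2.77% of all genes), 9 for MKN7 (18%) and 11 for NCI-N87 (35.8%).

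In some of these cases the gene changed in opposite directions on the 2 sides, each past the threshold. PLK2 rose in MKN7 and fell in MKN1 cells at 24 h, with a difference of 1.17 on the log2 scale, and it fell in NCI-N87 cells, with a difference from MKN7 cells of -1.09. GADD45A fell in NCI-N87 and rose in MKN7 cells (difference -1.88), and CCNG1 rose in NCI-N87 and fell in MKN7 cells (difference 0.64). Within MKN7 cells CCNG1 (-0.59) and PPM1D (-0.54) rose at 4 h and fell at 24 h, and DDB2 did so in NCI-N87 cells (-1.0).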

How the results depend on the processing

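Of 512 counts recomputed under the alternatives, 458 stayed within 1.5 times the reported count, and of 1565 values of single genes 0 changed sign and 177 no longer passed. Where a count under an alternative has no share of all genes beside it, it cannot be set against the general response. Without the fold change limit, genes called after afatinib numbered 5 (4 h) and 12 (24 h) in MKN1, 10 and 14 in MKN7 and 11 and 15 in NCI-N87 cells. Scaling by library size alone shifted the median of all genes by up to 0.28 on the log2 scale (0.26 for afatinib in NCI-N87 cells at 24 h) and left 1 gene regulated after afatinib in MKN1 cells at 4 h, 2 with trastuzumab at 4 h and 1 at 24 h. Without a filter, MKN1 against Hs746T cells differed in 2 genes and MKN7 against Hs746T in 5. At least 10 counts in every library left 4 genes between untreated MKN7 and Hs746T cells and 1 after EGF in MKN1 cells at 24 h. With the compared groups alone, 0 genes were regulated by cetuximab in MKN1 cells at 4 h and 0 differed between times in MKN1 cells. The replicate number as a block (pairing by number) gave 10 genes for MKN1 against Hs746T, 13 for MKN7 against Hs746T, 12 for MKN7 against MKN1 and 17 for NCI-N87 against MKN1 cells, 3 for the times in MKN1 cells, 2 for EGF at 4 h, 2 for cetuximab at 24 h and 1 for untreated NCI-N87 cells over time, where DESeq2 and no filter also gave 1, and it moved no other count by over 1.5 times.

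Leaving out 1 replicate gave the following lowest and highest counts, and the replicates without which a count moved by over 1.5 times are named. After afatinib in MKN1 cells they were 0 and 2 at 24 h (replicate 3) and 1 and 2 at 4 h (1 and 3), and with trastuzumab 0 and 2 at 24 h (3) and 1 and 2 at 4 h (1). After EGF in MKN1 cells they were 0 and 1 at 4 h (3) and 1 and 2 at 24 h (1 and 2), and after cetuximab 0 and 2 at 4 h (2 and 3) and 0 and 1 at 24 h (3). Over time in untreated cells they were 2 and 3 in MKN1 (2) and 0 and 1 in MKN7 cells (3). For differences between lines they were 0 and 4 for MKN1 against Hs746T (2 and 3), 3 and 7 for MKN7 against Hs746T (2 and 3), 7 and 9 for NCI-N87 against Hs746T (2), 6 and 9 for NCI-N87 against MKN1 (3) and 7 and 11 for NCI-N87 against MKN7 cells (2 and 3). For differences between times they were 0 and 2 in MKN1, 5 and 6 in MKN7 (1 and 2) and 5 and 7 in NCI-N87 cells, where as in MKN1 cells each of the 3 replicates moved the count. The cause was not tested, but fewer libraries entered each of these fits. Low counts limit what can be said of SPATA18 and EDA2R.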

Other observations

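Genes of the integrated stress response were described by 12 ATF4 target genes, several of which share stress inputs with SESN2 and GDF15. At 4 h afatinib regulated 2 of them upwards and 0 downwards in NCI-N87 cells (4 and 0 by adjusted p alone, median log2FC 0.34), where 3.24% of all genes were regulated and 9.06% higher. At 24 h it regulated 1 upwards and 4 downwards there (1 and 6 by adjusted p alone, median -0.72), where 29.6% of all genes were regulated, 31.5% higher and 31% lower by adjusted p. In MKN7 cells at 24 h 0 were regulated upwards and 2 downwards (median -0.42, 13.5% of all genes regulated), and in MKN1 cells 0 and 0 (median -0.17, 4.19%).

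The regulators and relatives of p53, counted at 24 h by adjusted p alone, had 1 higher and 7 lower of 15 in NCI-N87, 2 higher and 4 lower in MKN7 and 0 higher and 2 lower in MKN1 cells. Of all genes, 31.5% were higher and 31% lower in NCI-N87, 26.6% and 25% in MKN7 and 12.2% and 13.3% in MKN1 cells. The medians were -0.45, -0.23 and -0.11. Of 20 further p53 target genes, 9 were higher and 8 lower in NCI-N87, 6 and 6 in MKN7 and, of 19 tested, 6 and 2 in MKN1 cells. In MKN1 cells at 24 h after EGF, 5 of these 19 were higher and 7 lower (3432 and 3662 of all 19815 genes), among the lower ones ACER2, a ceramidase (log2FC -2.33, SE 0.47), and ABHD4 (-1.09, SE 0.11), and TP63 was lower as well (-1.14, SE 0.45).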
